A study of Mus musculus with 6 samples.

Results

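The semaphorins, plexins and neuropilins were followed in 6 primary cell cultures grown from mouse dorsal root ganglia, which hold the cell bodies of sensory neurons with their glia. Members were the protein-coding rows of the count table whose symbol named a semaphorin of class 3 to 7, a plexin of type A, B, C or D, or a neuropilin. The rule found 31 genes among 45703 in the table: 20 semaphorins, 9 plexins and 2 neuropilins. All cultures belonged to 1 group. The donors were adult C57BL/6 wild type mice, 4 to 6 weeks old. Ganglia were digested with Liberase, and the cells grew for 7 days on poly-L-lysine in DMEM/F12 with fetal calf serum (10%), EGF (10 ng/ml) and FGF (10 ng/ml). Each sample pooled the RNA of 2 dishes. No untreated ganglion, time course or sorted cell type was analysed here, so each level is that of a mixed culture. The replicates are described as biological, but no label ties a culture to an animal, and p-values measure the spread between these samples only.

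Semaphorins are guidance proteins that share a conserved extracellular sema domain, and plexins are their main receptors. Plexins carry a cytoplasmic GTPase-activating domain that acts on small GTPases of the Ras and Rap families. The class 3 semaphorins are secreted and most of them need a neuropilin as the ligand-binding co-receptor of a type A plexin. Classes 4 to 6 span the membrane, and Sema7a is held in it by a lipid anchor. In sensory ganglia the system is best known for Sema3a, which repels growing sensory axons through Nrp1 and type A plexins.

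The libraries held between 20070639 and 22968642 counts. Values are in CPM, the counts of a gene per 1000000 counts of its library, after scaling of library sizes by the trimmed mean of M-values (TMM). Levels of different genes are compared only as CPM per kilobase of combined exon length. Markers of the peripheral glial lineage and of neurons were present, with 8 of 8 and 9 of 9 list genes at 1 CPM or more in every library, as were 7 of 8 fibroblast genes. Replicates 1 and 5 were the lowest and the highest for the fibroblast list. Its summed level was 3372 CPM in replicate 1 and 13980.2 CPM in replicate 5, with 5534 CPM as the median. The libraries nearest to them held 4344 CPM (replicate 3) and 7421 CPM (replicate 4).

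Before the levels, the promoter sequences are shown for the members on which the results below turn. These are the ligands Sema7a and Sema3a and the co-receptor Nrp2. The others are Nrp1, Plxnd1 and Plxnb3, the most abundant neuropilin and plexins. Sema7a and Sema3a had higher levels, and Nrp2 lower ones, where fibroblast markers were higher. For Sema3a and Nrp2 this relation did not pass its threshold when some single libraries were left out. RefSeq windows (GRCm38.p6) were found for 26 of 31 members, and Sema3b, Sema3f, Plxna1, Plxna4 and Sema6a had none. Each line gives bases upstream of an annotated start, 5′ to 3′ on the gene's strand, without bases that lie in an exon of GENCODE M21. Except for Nrp2, the windows lie inside the gene's span in the count table, upstream of a RefSeq start that is not its outermost one, and for Sema3a far inside it. Capitals mark every match, on either strand, to 5 short motifs: GGGCGG (the GC box), TATAAA (the TATA box), TGANTCA (AP-1), ACAAAG (SOX and TCF factors) and GGAATG (TEAD factors). Matches may overlap each other.
Sema7a (chr9:57939862-57940111, + strand): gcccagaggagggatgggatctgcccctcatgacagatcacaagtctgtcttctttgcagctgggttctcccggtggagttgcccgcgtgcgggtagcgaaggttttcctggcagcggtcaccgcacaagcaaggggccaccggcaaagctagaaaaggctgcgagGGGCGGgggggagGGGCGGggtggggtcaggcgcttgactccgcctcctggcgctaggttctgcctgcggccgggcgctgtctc
Sema3a (chr5:13396534-13396783, + strand): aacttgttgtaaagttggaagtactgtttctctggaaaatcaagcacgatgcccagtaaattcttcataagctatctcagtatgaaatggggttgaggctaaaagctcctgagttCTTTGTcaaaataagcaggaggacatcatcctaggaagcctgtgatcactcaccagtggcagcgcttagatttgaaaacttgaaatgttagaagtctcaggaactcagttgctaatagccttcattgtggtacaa
Nrp2 (chr1:62703067-62703284, + strand): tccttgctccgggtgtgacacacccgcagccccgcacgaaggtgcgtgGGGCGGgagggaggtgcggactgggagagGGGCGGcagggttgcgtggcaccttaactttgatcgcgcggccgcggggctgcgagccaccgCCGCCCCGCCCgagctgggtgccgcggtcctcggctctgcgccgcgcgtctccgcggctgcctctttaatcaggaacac
Nrp1 (chr8:128358823-128359072, + strand): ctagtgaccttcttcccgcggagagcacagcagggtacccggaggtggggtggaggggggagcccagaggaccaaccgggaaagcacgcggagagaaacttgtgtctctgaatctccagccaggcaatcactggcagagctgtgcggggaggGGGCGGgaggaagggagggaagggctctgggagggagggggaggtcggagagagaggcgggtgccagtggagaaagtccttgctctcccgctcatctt
Plxnd1 (chr6:115995006-115995255, - strand): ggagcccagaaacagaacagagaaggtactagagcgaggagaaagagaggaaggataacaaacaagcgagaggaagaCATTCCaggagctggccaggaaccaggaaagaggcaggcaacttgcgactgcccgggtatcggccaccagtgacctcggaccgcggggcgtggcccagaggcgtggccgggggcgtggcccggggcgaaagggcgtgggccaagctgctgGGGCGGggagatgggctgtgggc
Plxnb3 (chrX:73756853-73757089, + strand): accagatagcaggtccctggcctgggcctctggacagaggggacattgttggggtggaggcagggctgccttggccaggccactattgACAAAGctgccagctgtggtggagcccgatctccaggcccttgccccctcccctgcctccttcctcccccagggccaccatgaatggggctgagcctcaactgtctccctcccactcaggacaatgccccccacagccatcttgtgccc

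The windows of Nrp2 and Sema7a were rich in G and C, at 72.5% and 66.4%, with 4 and 2 GC boxes. The Sema3a window held 40.8% G and C, 2 CpG dinucleotides and no GC box. Sema7a and Sema3a, whose levels were both higher where fibroblast markers were higher (for Sema3a largely through replicate 5), had unlike windows. The annotated start shown for Sema3a lies 271962 bases inside the gene's span, and its use in these cultures was not tested. Over the full 250 bases of the 37 member windows, the GC box occurred in 27 (73.0%), against 42.6% of all windows of protein-coding genes. The TATA box occurred in 0 member windows and in 11.6% of all windows. ACAAAG was found in 13.5% against 14.9%, TGANTCA in 8.11% against 6.13% and GGAATG in 8.11% against 11.7%. A match to a motif is a description of the letters and was not tested for use.

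Nearly the whole family was transcribed in the cultures. Of the 31 members, 29 had at least 1 CPM in all 6 libraries, where 55.7% of protein-coding genes did. The exceptions were Sema3d and Sema5b. Member transcripts together made up 0.417 ± 0.0161% of all counts (SD, n = 6). The median member stood at 9.15 CPM per kilobase, beside 8.56 for the protein-coding genes detected in all libraries and 1.40 for all protein-coding genes. The levels covered a wide range, from 199 ± 36.9 CPM per kilobase for Sema3b to 0.0563 ± 0.0420 CPM per kilobase for Sema5b (SD, n = 6).

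**Figure D1:**
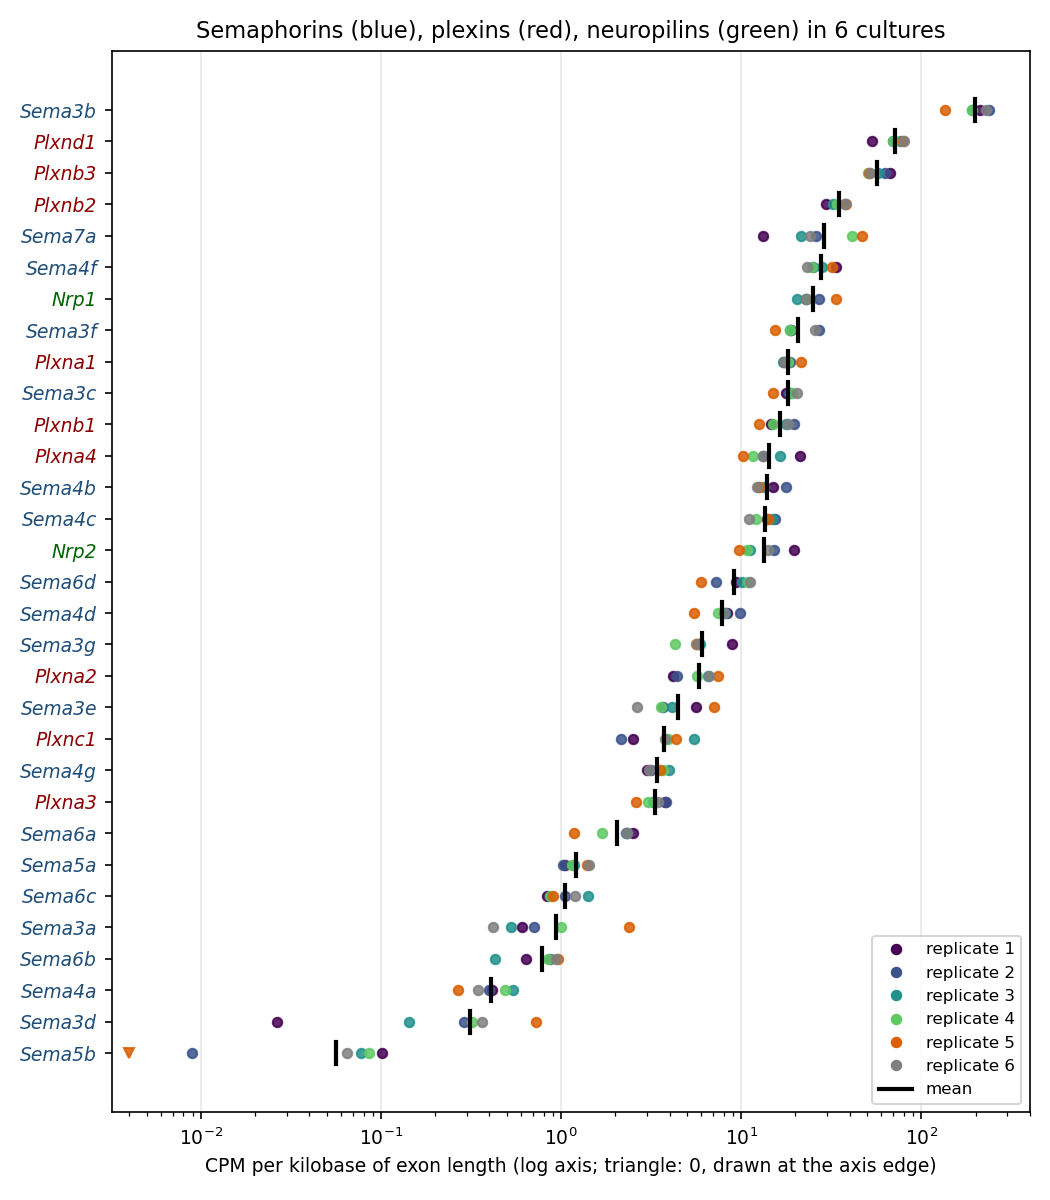
Level of each member in CPM per kilobase of exon length (log axis), with 1 point per culture coloured by replicate a black bar at the mean and a triangle at the axis edge for the 0 of Sema5b in replicate 5. Sema3b lies above all other members in every culture, and the points of Sema7a, Sema3a and Sema3d are spread more widely than those of the plexins.

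Among the secreted ligands, Sema3b (chromosome 9, 107597674 to 107609241, GRCm38.p6) dominated. It encodes a class 3 semaphorin that binds neuropilins. Its 6 libraries had a lowest value of 598 CPM, a median of 888 and a highest value of 1049.5 CPM. The lowest was replicate 5 and the highest replicate 2, and even the lowest lay above every value of every other member. Per kilobase, Sema3b alone accounted for 55.0 ± 5.75% of the summed level of the 20 semaphorins (SD, n = 6), and it exceeded 99.1% of protein-coding genes. Its exons lie beside Lsmem2, an overlapping gene on the same strand with few counts, and its counts were fractional in 4 libraries, so reads of the overlap may not be told apart.

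Sema3f and Sema3c followed it. Sema3f (chromosome 9, 107681499 to 107710475), a ligand of Nrp2, averaged 20.8 ± 4.58 CPM per kilobase and Sema3c (chromosome 5, 17574816 to 17730268), which can use either neuropilin together with Plxnd1, 18.3 ± 1.85 CPM per kilobase (SD, n = 6). Sema3c was among the steadiest members, between 74.4 and 102 CPM. Sema3g, another ligand of Nrp2, averaged 6.03 ± 1.50 CPM per kilobase, and Sema3e, which binds Plxnd1 without a neuropilin, averaged 4.45 CPM per kilobase, with values from 2.65 to 7.02 CPM per kilobase. The classical repellent Sema3a was scarce, at 0.942 ± 0.735 CPM per kilobase. It had a lowest value of 3.68 CPM, a median of 5.77 and a highest value of 20.9 CPM. A single culture, replicate 5, was far above the other 5, the next of which had 8.80 CPM.

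Sema3d, a ligand of Nrp1, was the sparsest class 3 member. Replicate 1 held 4 counts, or 0.174 CPM of the unscaled total (95% exact Clopper-Pearson interval 0.0475 to 0.446), and replicate 5 held 102 counts, or 4.87 CPM (3.97 to 5.92). The intervals of these 2 libraries did not overlap, and they cover counting error only. Replicate 5 thus had the highest level of both Sema3a and Sema3d.

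Among the ligands of the cell surface, the lipid-anchored Sema7a (chromosome 9, 57939596 to 57962865) and the transmembrane Sema4f (chromosome 6, 82911884 to 82939769) stood highest. Sema7a binds Plxnc1 and the integrin chain Itgb1, and Sema4f is known from contacts between Schwann cells and axons. Sema7a averaged 28.8 ± 12.7 CPM per kilobase and Sema4f 27.8 ± 4.23 CPM per kilobase (SD, n = 6), a difference within the spread. The 6 values of Sema4f lay between 116 and 169 CPM. Those of Sema7a had a lowest value of 51.5 CPM, a median of 97.4 and a highest value of 182 CPM. Replicate 1 was the lowest, and replicates 5 and 4 were the highest, and the next library had 101 CPM.

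In class 4, Sema4b averaged 13.9 ± 2.12 CPM per kilobase, Sema4c, a ligand of Plxnb2, 13.6 ± 1.72 CPM per kilobase, and Sema4d, the ligand of Plxnb1, 7.87 ± 1.44 CPM per kilobase (SD, n = 6). Sema4g stood at 3.40 ± 0.380 CPM per kilobase and Sema4a, best known from immune cells, at 0.409 ± 0.0975 CPM per kilobase. In class 6, Sema6d led at 9.15 ± 2.10 CPM per kilobase. Sema6a averaged 68.5 ± 17.1 CPM but only 2.05 ± 0.512 CPM per kilobase, because its combined exon length is 33.5 kilobases. That length counts the exons of all annotated transcripts, so levels per kilobase of genes with long alternative exons are understated. Sema6c and Sema6b were near 1 CPM per kilobase, at 1.05 ± 0.225 CPM per kilobase and 0.781 ± 0.205 CPM per kilobase.

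Class 5 semaphorins carry thrombospondin repeats beside the sema domain, and both were scarce. Sema5a averaged 1.21 ± 0.171 CPM per kilobase. Sema5b had 0 counts in replicate 5, which allows up to 0.143 CPM of the unscaled total when 3 counts are taken as the limit of a count of 0, and at most 12 counts in any library.

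The receptors were led by Plxnd1 (chromosome 6, 115954811 to 115995339) and Plxnb3 (chromosome X, 73756556 to 73772510). Plxnd1, the receptor of Sema3e, averaged 71.4 ± 9.88 CPM per kilobase and Plxnb3, for which Sema5a is a known ligand, 56.6 ± 6.71 CPM per kilobase (SD, n = 6). Plxnd1 had a lowest value of 390.0 CPM, a median of 534 and a highest value of 584 CPM, and Plxnb3 a lowest value of 416 CPM, a median of 449 and a highest value of 550.0 CPM. Plxnd1 was lowest in replicate 1, where Plxnb3 was highest, and Plxnd1 was above Plxnb3 per kilobase in 5 of 6 libraries. Together they took 57.0 ± 0.437% of the summed plexin level per kilobase (SD, n = 6), a share that hardly moved between cultures.

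Plxnb2 (chromosome 15, 89155546 to 89182018) came next at 34.9 ± 3.54 CPM per kilobase. Of the type A plexins, the partners of neuropilins, Plxna1 averaged 18.3 ± 1.62 CPM per kilobase, Plxna4 (chromosome 6, 32144543 to 32588192) 14.3 ± 3.99 CPM per kilobase, Plxna2 5.81 ± 1.32 CPM per kilobase and Plxna3 3.32 ± 0.463 CPM per kilobase (SD, n = 6). Plxnb1 stood at 16.3 ± 2.64 CPM per kilobase, and Plxnc1, the plexin that binds Sema7a, was among the lowest plexins at 3.71 ± 1.23 CPM per kilobase.

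Both neuropilins were expressed. Nrp1 (chromosome 8, 128358591 to 128505476), which binds Sema3a and is also a co-receptor for VEGF, averaged 25.0 ± 4.66 CPM per kilobase, and Nrp2 (chromosome 1, 62703317 to 62818692) 13.4 ± 3.68 CPM per kilobase (SD, n = 6). Nrp1 had a lowest value of 198 CPM, a median of 223 and a highest value of 324 CPM. Nrp2 had a lowest value of 78.7 CPM, a median of 103 and a highest value of 159.5 CPM. Replicate 5 was the highest for Nrp1 and the lowest for Nrp2, and replicate 1 was the highest for Nrp2. The ratio of Nrp1 to Nrp2 per kilobase was therefore 1.16 in replicate 1 and 3.46 in replicate 5, with a median of 1.79.

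The order of the levels was much the same in all libraries over the whole range, but not between neighbours. Over the 31 members, Spearman's rho between 2 libraries had a median of 0.977 and a lowest value of 0.933 over 15 pairs of libraries, as a description across genes that share each library. Of the 30 pairs of neighbours in the order, 3 kept their order in all 6 libraries: Sema3b above Plxnd1, Plxnb3 above Plxnb2, and Plxna3 above Sema6a. The order of Plxna3 and Sema6a rests on the long exon length of Sema6a. Without division by length, the mean was 27.7 CPM for Plxna3 and 68.5 CPM for Sema6a. For 22 pairs the mean difference was smaller than its SD, so those neighbours did not differ beyond their spread.

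Ligands and receptors were then compared within each library for 12 pairs of a known ligand and receptor or of paralogous receptors. Differences are of log2(CPM per kilobase + 0.1) and were tested by a two-sided exact sign-flip permutation over 64 patterns, whose smallest possible p is 0.0312. Of these pairs, 10 reached that value, with an adjusted p of 0.0375 over the 12. The value is reached whenever the same gene of a pair is the higher in all 6 libraries. Passing therefore describes a steady order of levels and was not a test of a link between ligand and receptor. The share of arbitrary gene pairs that pass was not computed, so the 10 cannot be called many or few. Nrp1 exceeded Nrp2 in 6 of 6 libraries, by 0.91 ± 0.51 (SD, n = 6, exact permutation p = 0.0312). Plxnb1 was lower than Plxnb2 in all 6, with a difference of -1.10 ± 0.26. These tests treat libraries as the unit and say nothing about the proteins.

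In 7 of the 9 ligand-receptor pairs compared, the receptor transcript was the more abundant in every library. The pairs are a chosen list, and Sema3b, whose level was above those of both neuropilins and every plexin, is in none of them. The difference of ligand minus receptor was -5.44 ± 0.33 for Sema5a and Plxnb3, -4.79 ± 0.61 for Sema3a and Nrp1, and -4.03 ± 0.59 for Sema3e and Plxnd1 (log2, SD, n = 6). It was smaller for Sema4c and Plxnb2, -1.36 ± 0.26, for Sema4d and Plxnb1, -1.05 ± 0.15, and for Sema6d and Plxna1, -1.02 ± 0.47. For Sema6a and Plxna2 it was -1.47 ± 0.66, but this rests on the long exon length of Sema6a, and without division by length the difference was 0.072. The difference of Sema6d and Plxna1 was -0.12 without length (exact permutation, adjusted p = 0.825) and no longer passed. Each of these 7 receptors was higher in 6 of 6 libraries.

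Sema7a was the exception among the pairs that passed, since the ligand exceeded its plexin Plxnc1 by 2.87 ± 0.65 in 6 of 6 libraries (log2, SD, n = 6). Sema3f exceeded Nrp2 in 5 of 6 libraries, by 0.64 ± 0.35 (exact permutation p = 0.0625, adjusted p = 0.0682), and Plxna1 exceeded Plxna4 in 5 of 6, by 0.39 ± 0.47 (exact permutation p = 0.0938, adjusted p = 0.0938). Neither passed, and replicate 1 was the library that went the other way in both.

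**Figure D2:**
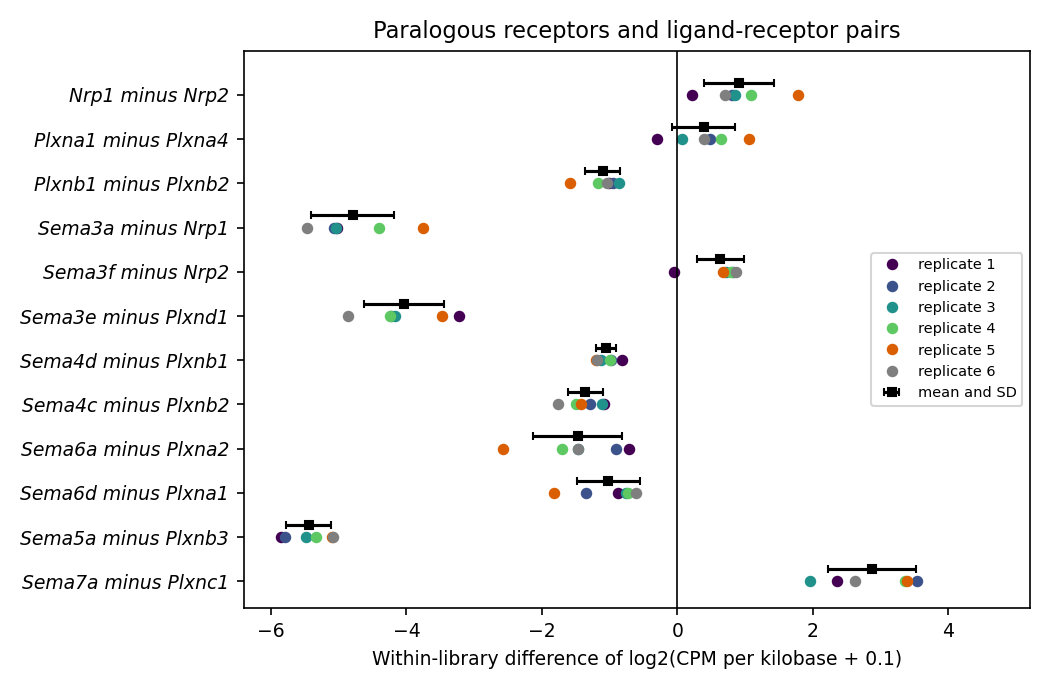
Within-library difference of log2(CPM per kilobase + 0.1) for the 12 pairs, with 1 point per culture and the mean ± SD as a square with bars. Points left of 0 are cultures in which the gene named second was higher, which holds in all cultures for 8 pairs.

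The members differed between cultures by more than counting noise. With a chi-square test in which each gene's 6 counts were set against the scaled library sizes, and Benjamini-Hochberg adjustment over 14998 genes, 29 of the 29 members that passed the filter on low counts were called, as were 76.3% of all genes tested. Sema3d and Sema5b did not pass the filter. Most genes at this depth pass this test, so the size of the spread says more. The coefficient of variation (the SD over the mean) of CPM had a median of 21.5% over all 31 members and 18.7% over the 29 tested, beside 12.1% over all genes tested.

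The widest spreads among the members tested were those of Sema3a, 78.0%, Sema7a, 44.0%, Sema3e, 35.9%, and Plxnc1, 33.2%. Plxna1, at 8.86%, Sema3c and Plxnb2, at 10.1%, varied least. By edgeR's quasi-likelihood fit, the adjusted p for variation beyond that of similarly abundant genes was under 0.05 for 0 members and for 0 of all genes (0%). At an unadjusted p under 0.05, 6 members passed (Sema7a, Sema3a, Sema3e, Plxnc1, Sema6a and Nrp2), beside 5.39% of all genes.

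Each gene's slope on the fibroblast markers was then measured. Their summed level differed 4.15-fold between the lowest and the highest library. The scarcer endothelial, macrophage and mural lists differed more, 9.91-fold, 9.52-fold and 5.46-fold, and slopes on them are given further on. The fibroblast score of a library is the mean of log2(CPM per kilobase + 0.1) over 8 genes (Pdgfra, Col1a1, Col1a2, Col3a1, Dcn, Lum, Dpt and Fbln1), and it ran from 3.25 in replicate 1 to 6.60 in replicate 5. A slope of 1 means that a gene rises in proportion to these markers. The slope was fitted for 14998 genes with edgeR's quasi-likelihood test. The SE given with an edgeR slope was computed as its size over the square root of its F statistic. The slope passed at an adjusted p under 0.05 for 5 of the 29 members, as it did for 6.09% of all genes. Of these members, 2 had a positive slope, as 4.91% of all genes did past the threshold, and 3 had a negative slope, as 1.18% of all genes did. The median slope was -0.048 over the members tested and -0.0050 over all genes. With DESeq2 in place of edgeR, 7 members passed, with Sema3b and Plxna3 added to the 5 (11.7% of all genes). Without replicate 5, edgeR passed 2 members, Sema7a and Sema3g (0.707% of all genes), and without replicate 4 it passed Sema7a alone (3.5%). In bulk samples, fewer cells of a type and less RNA per cell cannot be told apart.

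Sema7a had the clearest relation. Its slope was 0.56 ± 0.057 (SE, n = 6, edgeR adjusted p = 0.00226), and its level was 51.5 CPM in replicate 1 and 182 CPM in replicate 5. Pearson's r with the score was 0.972 (exact permutation p = 0.00556, adjusted over all genes 0.126) and rho was 0.829 by Spearman's method (exact permutation p = 0.0583, adjusted 0.351). Replicates 5 and 1 had the scores most distant from the median, and with both left out r was 0.947. Leaving out any single library kept the slope between 0.50 and 0.67 and past the threshold. Without both replicates 1 and 5 the slope was 0.67 (edgeR adjusted p = 0.429), a fit in which 0 of 15364 genes passed.

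Sema3a had a slope of 0.65 ± 0.15 (SE, n = 6, edgeR adjusted p = 0.0488), with r = 0.834 (exact permutation p = 0.0389, adjusted 0.220) and rho = 0.714 (exact permutation p = 0.136, adjusted 0.469). It rests largely on replicate 5: without that library the slope was 0.31 (edgeR adjusted p = 0.616). The call was also lost without replicate 2, 3, 4 or 6, at edgeR adjusted p-values from 0.0616 to 0.0946. Without replicate 1 the slope was 1.00 and passed.

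The members that were lower where fibroblast markers were higher were Sema6a, Plxna4 and Nrp2. Sema6a, a transmembrane ligand of type A plexins, had a slope of -0.34 ± 0.057 (SE, n = 6, edgeR adjusted p = 0.0161). It had a lowest value of 39.3 CPM, a median of 77.1 and a highest value of 83.9 CPM, with replicates 5 and 4 below the other 4. Its r with the score was -0.937 (exact permutation p = 0.00556, adjusted 0.126) and rho -0.829 (exact permutation p = 0.0583, adjusted 0.351). With both replicates 5 and 1 left out, r was -0.987. The slope missed the threshold without replicate 5 (-0.23, edgeR adjusted p = 0.264) and without replicate 4 (-0.35, edgeR adjusted p = 0.0528).

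Plxna4, a receptor component for Sema3a and Sema6a, had a lowest value of 129 CPM, a median of 166 and a highest value of 268 CPM. The highest was replicate 1 and the lowest replicate 5, and the slope was -0.30 ± 0.056 (SE, n = 6, edgeR adjusted p = 0.0256). Pearson's r was -0.908 (exact permutation p = 0.0167, adjusted 0.162) and rho -0.771 (exact permutation p = 0.103, adjusted 0.436), and r was -0.622 without replicates 5 and 1. Nrp2 had a slope of -0.30 ± 0.056 (SE, n = 6, edgeR adjusted p = 0.0257). Its r was -0.905 (exact permutation p = 0.0125, adjusted 0.151), its rho -0.943 (exact permutation p = 0.0167, adjusted 0.239) and, with both of those libraries left out, its r was -0.665.

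Both calls were lost without replicate 1, 4 or 5. The edgeR adjusted p-values were 0.119, 0.0838 and 0.201 for Plxna4 and 0.119, 0.0834 and 0.196 for Nrp2, with slopes between -0.35 and -0.23 for Plxna4 and between -0.36 and -0.24 for Nrp2. Nrp1 did not pass, with a slope of 0.15 ± 0.063 (SE, n = 6, edgeR adjusted p = 0.211). The difference in slope between the 2 neuropilins was not tested. The most abundant members did not pass either: the slope was -0.20 ± 0.072 for Sema3b (edgeR adjusted p = 0.155), -0.11 ± 0.045 for Plxnb3 (edgeR adjusted p = 0.190) and 0.12 ± 0.064 for Plxnd1 (edgeR adjusted p = 0.318).

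**Figure D3:**
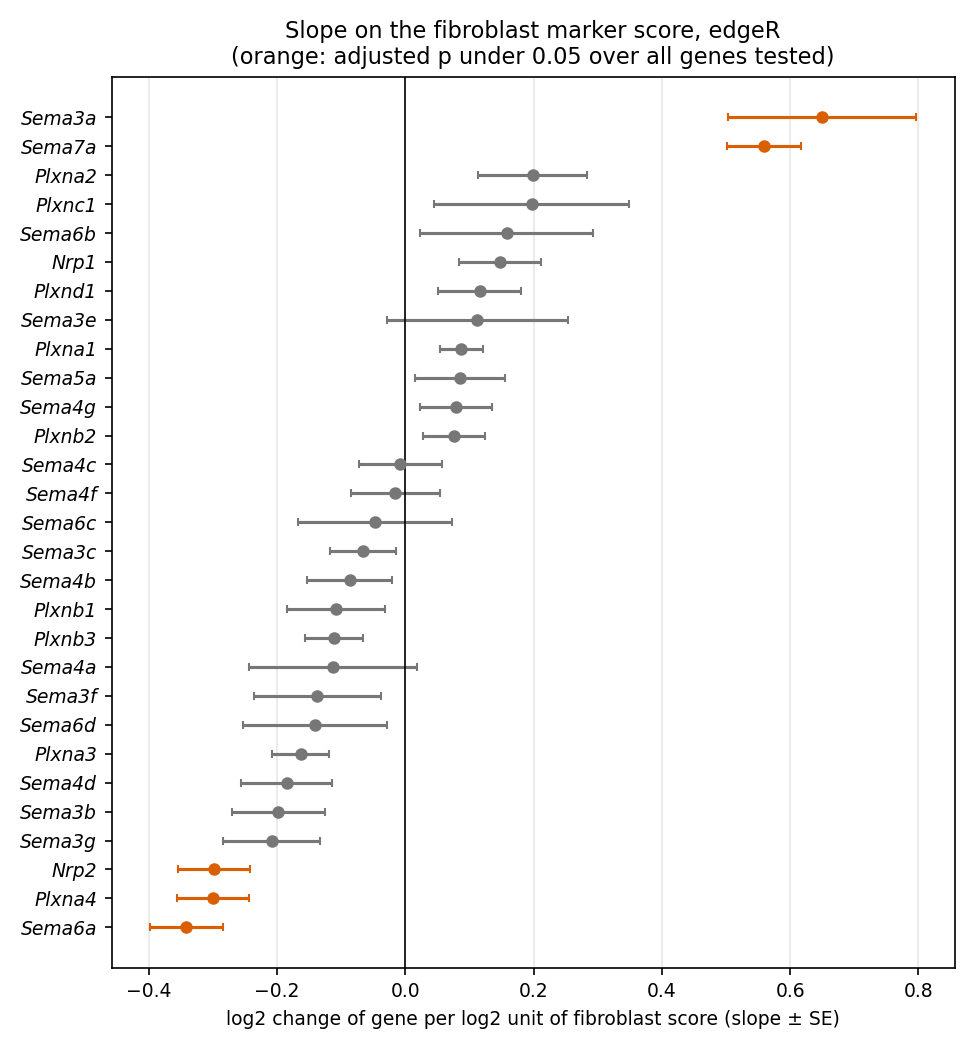
Slope of each of the 29 members tested on the fibroblast score, in log2 change of the gene per log2 unit of the score. Each is a point with ± SE, computed from edgeR's slope and F statistic. Sema3a and Sema7a lie to the right and Nrp2, Plxna4 and Sema6a to the left, in orange, and the other 24 members, in grey, did not pass.

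**Figure D4:**
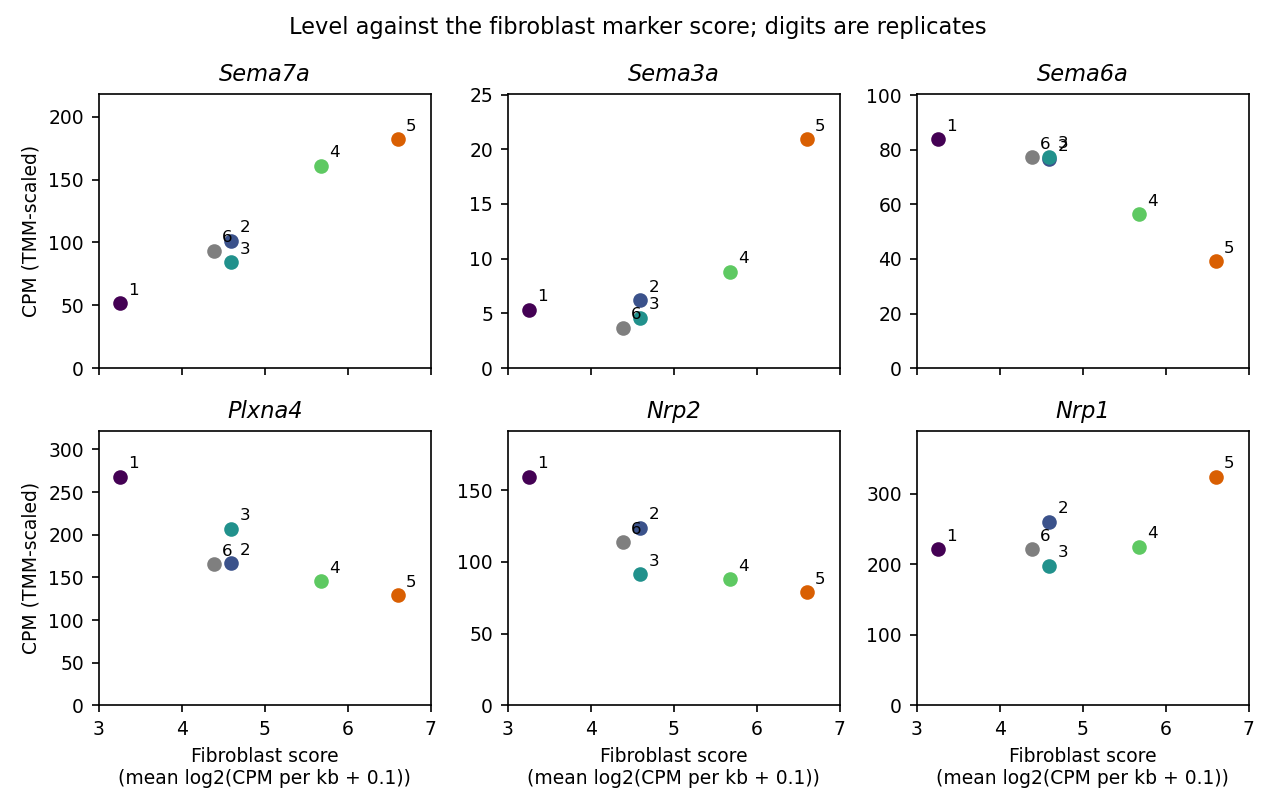
CPM of Sema7a, Sema3a, Sema6a, Plxna4, Nrp2 and Nrp1 (vertical axes from 0) against the fibroblast score, with 1 point per culture labelled by its replicate number. Replicates 4 and 5 are highest for Sema7a and lowest for Sema6a, Plxna4 and Nrp2, and the slope of Nrp1 did not pass.

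Other marker lists moved along the same axis, and their part in these slopes was not tested. Replicate 5 was also the highest library for the macrophage list, at a summed 161 CPM against a lowest value of 17.0 in replicate 1, for the mural list, 1485 against 272, and for the endothelial list, 125 against 12.6. At least 1 CPM in every library was reached by 6 of 8 macrophage, 5 of 8 mural and 3 of 7 endothelial genes. Those below 1 CPM in at least 1 library were Aif1 and Mrc1 among the macrophage genes, Des, Kcnj8 and Abcc9 among the mural genes, and Pecam1, Tek, Cldn5 and Tie1 among the endothelial genes, with Kcnj8 at 0 in replicate 1 and Cldn5 at 0 in replicates 2, 3 and 6. The glial lineage list was lowest in replicate 5, at 4334 CPM against at most 6420.0, and so was the neuron list, at 942 against at most 1972 CPM. The lymphocyte genes Cd3e, Cd3d and Ms4a1 had at most 3 counts in every library.

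Each of the other lists' scores was also fitted in place of the fibroblast score, and the members that passed were in part the same. On the endothelial score they were Sema3a (slope 0.78), Sema6a (-0.40), Sema3b (-0.27) and Sema4d (-0.26), where 3.8% of all genes passed. On the mural score they were Nrp2 (-0.38) and Plxna2 (0.35), with 4.71% of all genes. On the macrophage score Nrp2 passed (-0.31), with 0.82% of all genes. On the glial lineage score 0 members passed (edgeR), with 0.28% of all genes. Sema6a (2.03) and Sema3a (-4.12) narrowly missed the threshold there, both at an edgeR adjusted p of 0.0513. The glial lineage score ran only from 6.24 to 6.76, and the fibroblast score from 3.25 to 6.60. Sizes of slopes on different scores are therefore not comparable. At an unadjusted p under 0.05, 11 of 29 members passed on the glial lineage score, with 22.0% of all genes. On the neuron score 0 members (edgeR) and 0% of all genes passed. At an unadjusted p under 0.05, 3 of 29 members passed on it, with 9.11% of all genes. Which of these lists a member follows cannot be told apart over 6 libraries.

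Co-receptors and signalling partners of the system were read from a list of 40 genes. At least 1 CPM in every library was reached by 33 of them. The highest per kilobase were Itgb1, the integrin chain that binds Sema7a, at 546 ± 29.2, the small GTPases Rhoa, 202 ± 9.38, and Rac1, 198 ± 7.88, and the adhesion molecules L1cam, 159 ± 25.4, and Chl1, 123 ± 24.5 CPM per kilobase (SD, n = 6), which can join neuropilin complexes. Itgb1 thus stood above both Sema7a and its plexin Plxnc1.

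Of the 36 partners tested on the fibroblast score, 8 passed with a positive slope, where 4.91% of all genes did, and 1 with a negative one, where 1.18% did. The median slope of the list was -0.019. Among the partners that passed, the steepest positive slopes were those of Vegfc, a growth factor that binds Nrp2, 1.12 ± 0.10, Trem2, a myeloid receptor linked to plexin signalling, 1.02 ± 0.21, and Kdr, the endothelial VEGF receptor, 0.94 ± 0.20 (SE, n = 6), with edgeR adjusted p-values of 0.00123, 0.0328 and 0.0411. All 3 are low genes, with means of 2.08, 4.33 and 2.18 CPM. Each was highest in replicate 5, at 6.44, 10.6 and 7.48 CPM. Their slopes without that library are not given here, so these relations may rest on it. The negative slope was that of Arhgef12, a RhoGEF that binds type B plexins, -0.19 ± 0.036 (SE, n = 6, edgeR adjusted p = 0.0238) at a mean of 488 CPM.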

How the data were processed

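Poly-A RNA of 6 cultures was sequenced from stranded libraries (input 500 ng, 15 amplification cycles), per the labels' protocols. The submitters' processing notes name bcl2fastq 2.20.0.422, cutadapt 2.5, STAR 2.7.2b and featureCounts 1.6.4 and the build GRCm38.p6. Settings, including the strand setting, are not given in the sources used here. The deposited table holds estimated counts per gene with no scaling, and part of the values are not whole, for which no rule is stated. Members with whole counts in all libraries numbered 16 of 31. Exon lengths are the deposited combined lengths in bases.

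Counts were rounded and analysed in R 4.3.3 with DESeq2 1.42.0 as the alternative to edgeR 4.0.16. Genes were filtered with filterByExpr (14998 kept) and scaled by TMM. The chi-square test, the quasi-likelihood fits (an intercept, or the list score as covariate) and the exact permutation of correlations (log2(CPM + 0.5), 720 pairings) were run on all kept genes with Benjamini-Hochberg adjustment over all of them. The tests were checked on simulated data, where DESeq2 made more calls among unchanged genes than edgeR. Other settings were total counts, DESeq2 factors and tests, no filter, whole counts, other scores, pseudocounts and omitted libraries. Named genes were all members, the 5 highest partners and the 3 steepest passing partners in each direction. The members and all lists were chosen with earlier results of these data known. Samples were grouped by title, and the labels give no batch.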

Additional observations from a re-analysis of the deposited data

Results flagged for a closer look

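Among the 6 CPM values of each member, the distance from an extreme value to the next one was taken as a share of the whole spread between lowest and highest. For 3 of the 31 members this share was above Dixon's 95% limit for 6 samples. Chance gives about 1.55 if the values are normal and independent. How many of all genes lie above the limit was not computed, so the 3 cannot be called many or few. Sema3a was far higher in replicate 5 than elsewhere, at 20.9 CPM with a next value of 8.80, a share of 0.703. Plxna1 was 193 CPM in replicate 5 and at most 168 CPM elsewhere, a share of 0.659. Sema3g was 40.9 CPM in replicate 1 and at most 27.2 CPM elsewhere, a share of 0.649.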

How the results depend on the processing

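The number of members related to the fibroblast score was 5 of 29, where 6.09% of all genes passed. It was 2 with the median of the list in place of its mean (4.66% of all genes passed), 2 of 14 tested on genes with whole counts (7.60%), 0 by exact permutation of Pearson's r, in which 0 of all 14998 genes passed, and 1 to 4 when each library was left out, with 0.707% to 5.92% of all genes (1 without replicate 4, 2 without replicate 5: Sema7a and Sema3g). Without replicate 1 the members that passed included Plxnb1 (-0.27, edgeR adjusted p = 0.0280), which was not among the 5. The number was 0 without replicates 1 and 5 together, as was the share of all genes (0%). This setting was chosen after seeing the data and leaves 4 libraries. With DESeq2 it was 7 (11.7% of all genes), among them Sema3b (-0.20, adjusted p = 0.0434) and Plxna3 (-0.16, adjusted p = 0.0381). With the glial lineage, neuron, macrophage, mural and endothelial scores as covariate it was 0, 0, 1, 2 and 4. Of all genes, 0.28%, 0%, 0.82%, 4.71% and 3.8% passed on these scores, in the same order. Without replicates 1 and 5 the slopes of Nrp1 and Plxnd1 were -0.0061 and -0.12, the opposite sign of their values over 6 libraries, neither of which passed. Members detected numbered 29, and 14 among the 16 with whole counts. Those beyond counting noise numbered 29, where 76.3% of all genes passed. They numbered 14 of 14 tested on whole counts (80.6% of all genes) and 26 to 30 with a library left out (66.9% to 74.8%). Without division by exon length, Plxna1 minus Plxna4 was -0.091, Sema3f minus Nrp2 -0.070, Sema6a minus Plxna2 0.072 and Sema6d minus Plxna1 -0.12, and none of these passed. The cause of these shifts was not tested, beyond the fewer genes or libraries that some settings leave. The other pair differences kept their direction in every setting run. No paired analysis was possible because the labels give 1 group. Sema3d and Sema5b had few counts, and their values carry the widest counting error.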

Other observations

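Several members lie close together in the genome without sharing a level. On chromosome 5, Sema3d, Sema3a, Sema3e and Sema3c lie within 5.35 Mb, and the mean level of Sema3c per kilobase was 58.8 times that of Sema3d. On chromosome 9, Sema3b and Sema3f are 72.3 kb apart, and Sema3b stood at 9.61 times the level of Sema3f. On chromosome X, Plxnb3 and Plxna3 are 556 kb apart, and Plxnb3 stood at 17.1 times the level of Plxna3.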
